A study of Hordeum vulgare with 12 samples.

Results

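miR397 is a conserved plant microRNA family, represented by 17 of the 3258 sequences that the authors' tables list for barley (Hordeum vulgare). The members are the rows whose name column gives the family number 397 more often than any other, with no further digit after it. 6 of the 17 had a count in any library, and 697 of the 3258 did. The libraries came from shoots and roots of 2-week-old plants of the cultivar Golden Promise, grown in perlite with 16 h of light a day. They form 4 groups of 3 biological replicates: nitrogen-excess shoot (280 mM NH4NO3), control shoot (28 mM NH4NO3), nitrogen-excess root (280 mM) and control root (28 mM). Both media held 8 µM CuSO4, and differed in NH4NO3 alone. Each library holds RNA of a whole organ, so fewer cells of a type and less miRNA per cell cannot be told apart.

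In Arabidopsis and other plants, miR397 guides the silencing of laccase transcripts. Laccases are secreted copper oxidases that polymerise monolignols into lignin. miR397, miR398, miR408 and, in monocots, miR528 are called copper miRNAs. They rise when copper is short, through the transcription factor SPL7 in Arabidopsis, and lower the levels of copper proteins such as laccases, plantacyanins and copper superoxide dismutase. Laccase transcripts were not measured here.

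The 6 counted sequences are shown first, because which form of miR397 was counted decides what the levels below describe. Letters are as deposited, with T in place of U. Capitals mark the seed, bases 2 to 8.
bdi-miR397b-5p: aTTGAGTGcagcgttgatgaa
hvu-miR397b-3p: aTCAACGCtgcactcaacggc
bna-miR397a: tCATTGAGtgcagcgttgatgt
hvu-miR397a: cCGTTGAGtgcagcgttgatg
sbi-miR397-3p: tCACCGGCgctgcactcaatt
tae-miR397-5p: tCACCGGCgctgcacacaatg
A name states the species in which the sequence was annotated (bdi Brachypodium, hvu barley, bna oilseed rape, sbi sorghum, tae wheat), not the plant sequenced here. The 6 sequences have 5 different seeds, and sbi-miR397-3p and tae-miR397-5p share one.

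Nearly all counts belonged to 1 sequence. bdi-miR397b-5p had 30806 counts over the 12 libraries and was counted in every one. hvu-miR397b-3p had 349 counts, in 11 libraries. bna-miR397a had 15, hvu-miR397a had 13, sbi-miR397-3p had 5 and tae-miR397-5p had 1. The other 11 sequences had 0 counts in every library.

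The form listed for most species was among those at 0. It carries 10 names in the table, among them bdi-miR397a, osa-miR397a of rice and ath-miR397a of Arabidopsis. Below it is set against bdi-miR397b-5p, with the run of 19 bases that both share in capitals.
bdi-miR397a: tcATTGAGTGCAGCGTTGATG
bdi-miR397b-5p: ATTGAGTGCAGCGTTGATGaa
The shared run starts at base 3 of bdi-miR397a and at base 1 of bdi-miR397b-5p, so the dominant sequence starts 2 bases further downstream and has another seed and another first base. The 0 of bdi-miR397a is not read here as absence. Its letters are contained in the 22-nt bna-miR397a, which had 15 counts. The tables hold 79 pairs of a contained and a containing sequence where the containing one had 10 or more counts, and the contained one was at 0 in all 79. Of all 3258 listed sequences 697 had a count in any library. The sources used here do not state how reads with shifted ends were assigned. No listed sequence outside the family shared a run of 15 or more bases with bdi-miR397b-5p on either strand.

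The 2 counted sequences with barley names are shown because they are nearly exact complements. Their names carry different letters, a and b, and no hairpin was used, so they are not taken as arms of 1 precursor. The 20 bases in capitals are each other's reverse complement.
hvu-miR397a: CCGTTGAGTGCAGCGTTGATg
hvu-miR397b-3p: ATCAACGCTGCACTCAACGGc
hvu-miR397a had 7 counts in nitrogen-excess shoot 1, 1 in control shoot 3, 2 in nitrogen-excess root 1 and 3 in nitrogen-excess root 3, and none elsewhere. hvu-miR397b-3p had 349 counts over all libraries against 13 for hvu-miR397a, and 222 of the 349 came from nitrogen-excess root 3.

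Counts over all listed sequences ranged from 245176 to 2246495 per library. These totals cover listed miRNAs and are not sequencing depth. 2 libraries stood apart from their tissue labels. On a scale where the other shoot libraries average 0 and the other root libraries average 1, computed from 176 sequences without miR397, the value was 1.01 for the library labelled nitrogen-excess shoot 3. It was -0.24 for the library labelled control root 3. The remaining shoots lay between -0.33 and 0.15 and the remaining roots between 0.79 and 1.47. Each of the 2 libraries thus lay within the range of the other tissue. Whether they were exchanged or mislabelled was not tested, so group values from all libraries may mix the tissues. The fits of miR397 and its 2 most counted sequences, and those of the other copper families in each tissue, are given with the labels as deposited and without the library concerned. Shares are given with all libraries and, in a later section, as a range with 1 library left out. The likeness of patterns is given with all libraries only. Library names also carry 3 prefixes. Replicate 1 of each group has one, nitrogen-excess root 3 has another and also differs in the next part of its name, and the other 7 libraries have the third.

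The family sum is given first per library, as counts scaled to a total of 1000000 listed counts per library (CPM, not scaled further). miR397 stood at 7712, 2669 and 946 CPM in nitrogen-excess shoots 1, 2 and 3, against 359, 372 and 1063 CPM in control shoots 1, 2 and 3. 2 of the 3 nitrogen-excess shoots lay above all controls, while the one labelled replicate 3 lay just under control shoot 3. Without that library, both remaining nitrogen-excess shoots lay above all controls, as held for 12.1% of the 58 families tested. In roots it stood at 2852, 475 and 866 CPM in nitrogen-excess libraries 1, 2 and 3, against 230, 127 and 8360 CPM in control libraries 1, 2 and 3. The library labelled control root 3 held the highest level of all 12 libraries, and the other control roots the lowest.

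**Figure D1:**
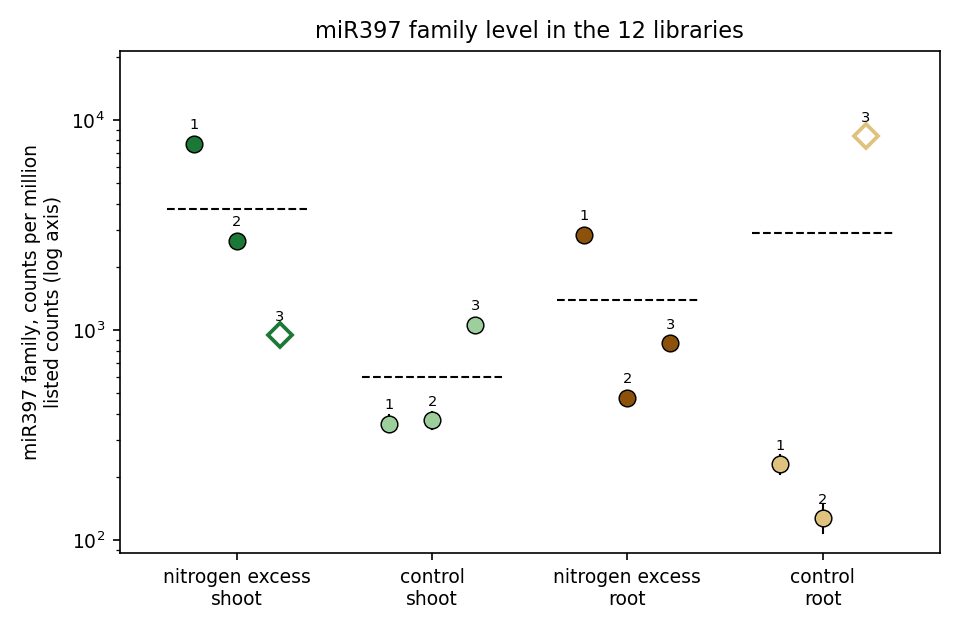
miR397 family level in CPM of listed counts (log axis) for each library, by group, with the replicate number above each point. Bars are 95% Wilson intervals, mostly smaller than the symbols, and dashed lines are group means. Open diamonds are the libraries labelled nitrogen-excess shoot 3 and control root 3. Control root spans 127 to 8360 CPM, and control shoot 359 to 1063 CPM.

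Counting error was small beside these differences. In control root 2, where the family had its lowest count of 146, the 95% Wilson interval was 108 to 149 CPM. In the library labelled control root 3, with 5476 counts, it was 8142 to 8583 CPM. Replicates of 1 group, as labelled, thus differed far beyond counting error. Control root 3 stood apart from its tissue label, but control root 1, at 207 to 254 CPM, also lay outside the interval of control root 2. The coefficient of variation between replicates was 93.1% in nitrogen-excess shoot, 67.4% in control shoot, 91.2% in nitrogen-excess root and 163% in control root. The values of nitrogen-excess shoot and control root include the libraries that stood apart from their tissue labels.

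By group means the order was nitrogen-excess shoot (3776 ± 3516 CPM), control root (2906 ± 4724 CPM), nitrogen-excess root (1398 ± 1274 CPM) and control shoot (598 ± 403 CPM; SD, n = 3 each). The libraries of every neighbouring pair of groups in that order overlapped. The control root mean rested on the library labelled control root 3 (8360 CPM). By medians control root was lowest (230 CPM), after nitrogen-excess shoot (2669 CPM), nitrogen-excess root (866 CPM) and control shoot (372 CPM). Ranked among all families by counts, miR397 was 10th, 13th and 21st in nitrogen-excess shoots 1, 2 and 3, against 29th, 29th and 19th in control shoots. It was 15th, 22nd and 25th in nitrogen-excess roots 1, 2 and 3, against 21st, 23rd and 11th in control roots.

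In shoots, the question was whether miR397 differs between plants given excess nitrogen and control plants. The fitted log2 fold change of the family was 3.00 ± 0.96 (SE), which is 2.86 above the median of all 58 families fitted. By edgeR's quasi-likelihood test its adjusted p was 0.0956, so the family was not called at 0.05. On the fit's own scale (TMM, which weighs libraries by the bulk of families) the groups did not overlap: 8271, 3181 and 1072 CPM in nitrogen-excess shoots 1, 2 and 3, against 321, 336 and 911 CPM in control shoots. 15.5% of the 58 families had all nitrogen-excess shoots above all controls on that scale, and 6.9% on the unscaled scale, where miR397 was not among them. 0% of the families were called in either direction (edgeR, 0 of 58; 13 had an unadjusted p below 0.05, DESeq2 called 6 and limma-voom 0).

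The call of miR397 in shoot turned on the processing while its direction did not. DESeq2 on the same families gave 2.65 ± 0.77 (adjusted p = 0.0102). Over the alternatives with an edgeR fit, the adjusted p ranged between 0.0112 with no filter on low counts and 0.51 without control shoot 2. With no filter 8 of 209 families were called. The entry OLAs_528, which overlaps miR528-3p in sequence and has nearly the same counts in shoot, was kept as a family of its own. Summing it into miR528, or leaving it out, both tried after the data were seen, gave miR397 at 3.32 ± 0.90 in both cases (edgeR adjusted p = 0.0233 and 0.0238), with the family median at 0.60 in place of 0.14. In either case 5 of 57 families were called. Leaving out the library labelled nitrogen-excess shoot 3 gave 3.32 ± 0.79 (edgeR adjusted p = 0.0658). Without nitrogen-excess shoot 1, the highest shoot, it was 1.75 ± 0.75 (edgeR adjusted p = 0.198). In that fit and the next, the nitrogen-excess group held replicate 2 and the library labelled replicate 3, which stood apart from its tissue label. Within the prefix shared by shoot replicates 2 and 3 it was 1.62 ± 0.90 (edgeR adjusted p = 0.299). The prefix of replicate 1 has 1 library a group, 7712 CPM in nitrogen-excess shoot 1 against 359 CPM in control shoot 1, and no test.

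In roots, miR397 gave no direction that held across libraries. The family stood at -0.28 ± 1.17 on the log2 scale, 0.05 below the median of the 66 families fitted (edgeR adjusted p = 0.988). 0% of the families were called (edgeR, 0 of 66; 0 had an unadjusted p below 0.05, and DESeq2 and limma-voom called 0). DESeq2 gave no p for miR397, because Cook's distance marked a count outlier, largest in the library labelled control root 3. With that cutoff off its adjusted p was 0.981. Without that library the family stood at 2.12 ± 0.94 (edgeR unadjusted p = 0.0261, adjusted p = 0.354). In unscaled CPM, the 3 nitrogen-excess roots then lay above both remaining controls, as held for 27.3% of the 66 families. With all libraries the groups overlapped for miR397, where 9.09% of the families had all nitrogen-excess roots above all controls in unscaled CPM and 3.03% on the TMM scale. The sign was also positive without nitrogen-excess root 2 (0.07) or without nitrogen-excess root 3 (0.12), and without nitrogen-excess root 1 the value was -1.65.

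Whether the response differs between root and shoot was tested on the family sums of all 12 libraries. The difference, root minus shoot, was -2.67 ± 1.55 on the log2 scale (edgeR adjusted p = 0.726), where 0% of 75 families were called (edgeR, 0 of 75; 3 had an unadjusted p below 0.05, and DESeq2 and limma-voom called 0). Without the library labelled control root 3 it was -1.15 ± 1.23, and without both libraries that stood apart -0.79 ± 1.17 (edgeR adjusted p = 0.752 and 0.881). A different response of miR397 in root and shoot was thus not shown.

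The level in root against shoot was taken from the same fit. In control plants miR397 stood at 1.83 ± 1.11, higher in root (edgeR adjusted p = 0.262), and in nitrogen-excess plants at -0.84 ± 1.08 (edgeR adjusted p = 0.772). 0% of the 75 families were called in either contrast (edgeR; 19 and 8 had an unadjusted p below 0.05, DESeq2 called 19 and 0, and limma-voom 0 and 0). The control value rested on the library labelled control root 3: without it the value was 0.03 ± 0.92, and without both libraries that stood apart -0.46 ± 0.84 (edgeR adjusted p = 0.971 and 0.679). In the fit without both, edgeR called 30 of the 79 families tested in control plants and 26 of 79 in nitrogen-excess plants. miR397 was in neither set (nitrogen-excess plants -1.25 ± 0.82, edgeR adjusted p = 0.297).

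**Figure D2:**
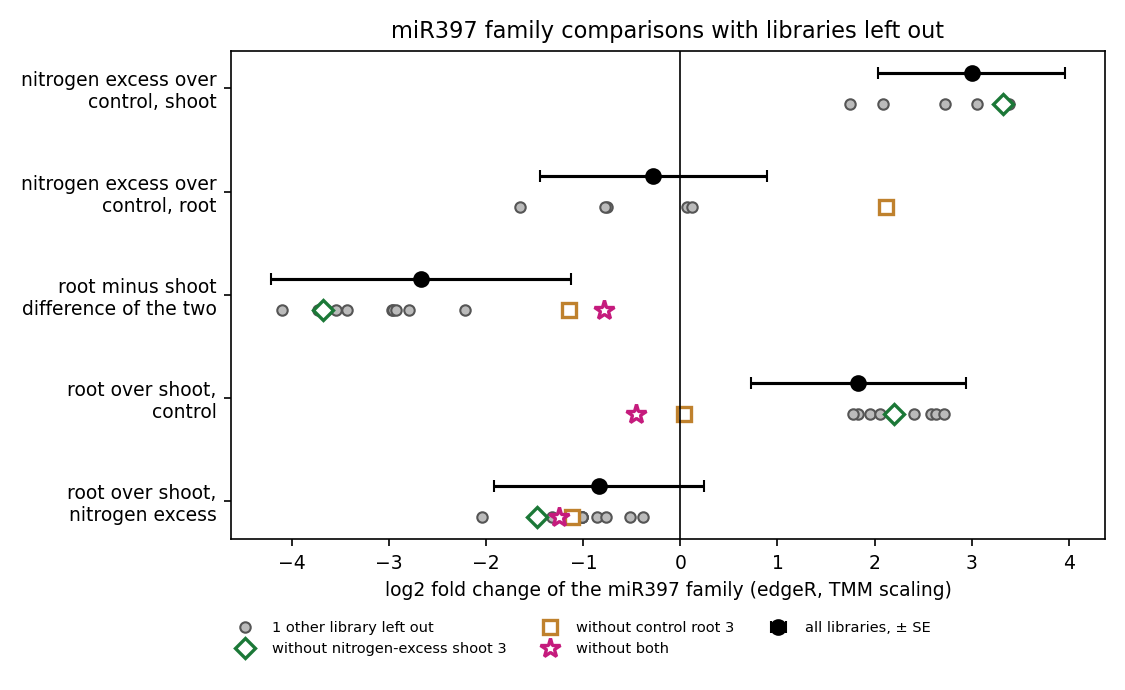
Log2 fold change of the miR397 family (edgeR, TMM scaling) in the 5 comparisons. Black circles with bars are the fits of all libraries ± SE, grey circles the fits without 1 library, the open diamond the fit that leaves out nitrogen-excess shoot 3, the open square the fit that leaves out control root 3, and the star without both. Shoot values are all above 0, from 1.75 to 3.39 with 1 library out, while root values lie on both sides of 0, from -1.65 to 2.12.

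The members were also described singly, since bdi-miR397b-5p sets the family sum. It made up 99.7%, 99.6% and 95.7% of the miR397 counts in nitrogen-excess shoots 1, 2 and 3, against 98.1%, 98.0% and 99.8% in control shoots. In roots it made up 99.1%, 97.7% and 83.5% in nitrogen-excess libraries 1, 2 and 3, against 93.9%, 97.9% and 99.7% in control libraries. The mean shares were 98.3 ± 2.29% and 98.6 ± 1.04% in nitrogen-excess and control shoot (two-sided exact permutation test, p = 0.8), and 93.4 ± 8.61% and 97.2 ± 3.00% in nitrogen-excess and control root (p = 0.6, same exact test; SD, n = 3 each). With 3 against 3 libraries this test cannot give a p below 0.1.

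2 of the 17 sequences passed the filter on low counts, the same ones in each tissue. bdi-miR397b-5p had 17275, 2072 and 222 counts in nitrogen-excess shoots 1, 2 and 3, against 459, 443 and 1313 in control shoots. The libraries differ in total, so the raw count of the library labelled nitrogen-excess shoot 3 is the lowest of the 6 while its level, 905 CPM, is not. The log2 fold change was 2.58 ± 0.92, with an adjusted p of 0.227 in edgeR and 0.0249 in DESeq2, and the authors' deposited table gives 2.67 with an adjusted p of 0.0400. edgeR called 0% of 148 shoot sequences (0 of 148; 15 had an unadjusted p below 0.05, DESeq2 called 8 and limma-voom 1).

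Without the library labelled nitrogen-excess shoot 3, bdi-miR397b-5p stood at 2.99 ± 0.73 (edgeR adjusted p = 0.105). On the TMM scale bdi-miR397b-5p had all nitrogen-excess shoots above all control shoots, as did 8.11% of the 148. In unscaled CPM with nitrogen-excess shoot 3 left out, the same held for it, and for 9.46% of the 148.

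In roots bdi-miR397b-5p had 1275, 640 and 1151 counts in nitrogen-excess libraries 1, 2 and 3, against 352, 143 and 5461 in control libraries. The library labelled control root 3 was again highest. The log2 fold change was -0.20 ± 1.15 (edgeR adjusted p = 0.955), and 1.87 ± 0.91 without that library (edgeR adjusted p = 0.604). In unscaled CPM all nitrogen-excess roots then lay above both remaining controls for this sequence, as for 31.5% of the 146. With all libraries the groups of both sequences overlapped. All nitrogen-excess roots lay above all controls for 10.3% of the 146 in unscaled CPM and for 5.48% on the TMM scale. The sign was also positive without nitrogen-excess root 2 (0.07) or 3 (0.24). edgeR called 0% of 146 root sequences (0 of 146; 1 had an unadjusted p below 0.05, and DESeq2 and limma-voom called 0). The authors' deposited table gives bdi-miR397b-5p in root a log2 fold change of -0.49 and no p-value.

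hvu-miR397b-3p, named in barley, was low and followed another pattern. It had 28, 8 and 10 counts in nitrogen-excess shoots 1, 2 and 3, against 9, 9 and 0 in control shoots. Its levels were 12.5, 10.3 and 40.8 CPM in nitrogen-excess shoots 1, 2 and 3, against 6.91, 7.40 and 0 CPM in control shoots. Only the nitrogen-excess libraries exceeded the cutoff of the filter on low counts, so the sequence was fitted only because that group was high, and the groups of a sequence kept in this way had to differ. Nothing is read from their separation. In unscaled CPM 6.08% of the 148 shoot sequences had all nitrogen-excess shoots above all controls. A count of 0 in control shoot 3 allows up to 2.43 CPM. The fitted log2 fold change in shoot was 2.21 ± 1.10 (edgeR adjusted p = 0.443), and 1.17 ± 1.22 without the library labelled nitrogen-excess shoot 3.

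In roots hvu-miR397b-3p had 10, 15 and 222 counts in nitrogen-excess libraries 1, 2 and 3, against 23, 3 and 12 in control libraries. Nitrogen-excess root 3 alone held 222 of its 349 counts, 16.1% of that library's miR397 counts (95% Wilson interval 14.3% to 18.1%), where the other 11 libraries ranged between 0% and 6.13%. That library also had counts for 284 families, against 97 to 144 in the others. Its name has a prefix and a following part that no other library shares. The part of these in the result was not tested. The log2 fold change in root was 1.48 ± 1.06 (edgeR adjusted p = 0.955), 0.48 ± 1.40 without it, and 1.50 ± 1.20 without the library labelled control root 3. The library labelled control root 3, highest for bdi-miR397b-5p at 8337 CPM, stood at 18.3 CPM for hvu-miR397b-3p.

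**Figure D3:**
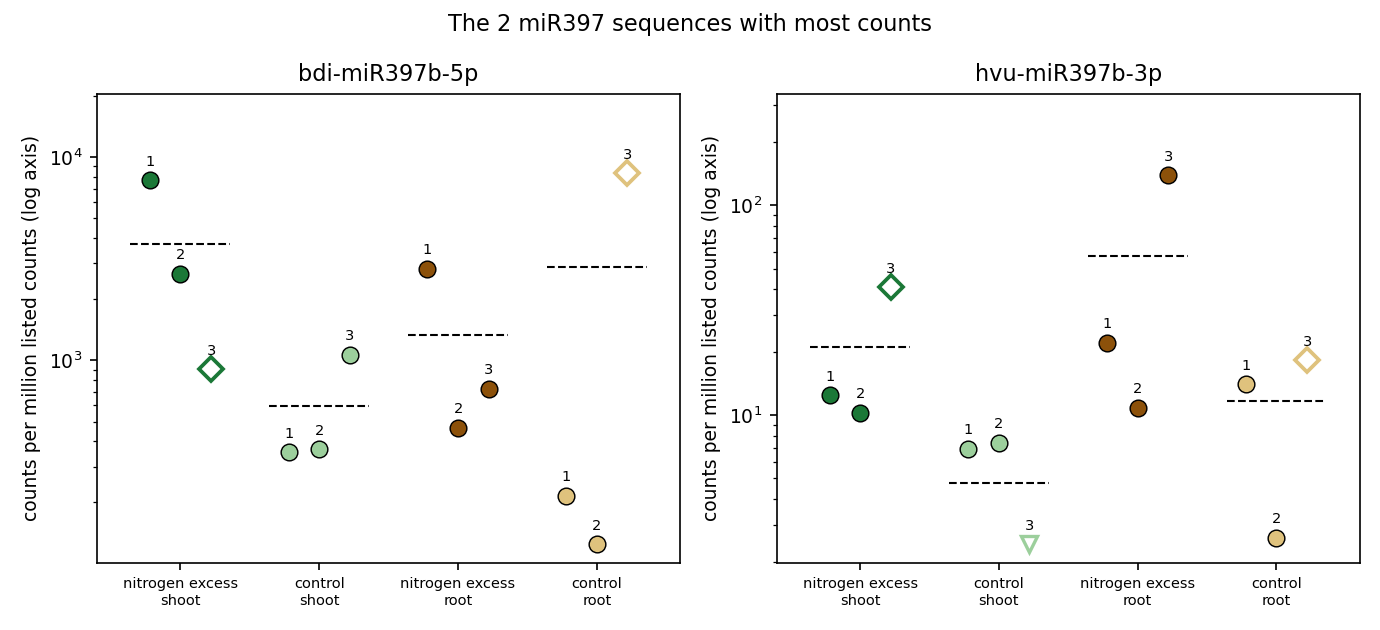
Level of bdi-miR397b-5p (left) and hvu-miR397b-3p (right) in CPM of listed counts (log axes of different range) in each library, by group. Open diamonds are the libraries labelled nitrogen-excess shoot 3 and control root 3, dashed lines are group means, and the open triangle marks a count of 0 at the level that 3 counts would give. The 5p sequence is highest in control root 3 (8337 CPM) and nitrogen-excess shoot 1 (7690 CPM), the 3p sequence in nitrogen-excess root 3 (140 CPM).

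miR397 was the most counted of the copper miRNAs. Its family sum exceeded those of miR398, miR408 and miR528 in each of the 12 libraries, and miR857, a laccase miRNA of Arabidopsis, was listed with no count in any library. miR397 made up 62.6%, 70.9% and 58.4% of the copper miRNA counts in nitrogen-excess shoots 1, 2 and 3, against 49.6%, 57.3% and 68.0% in control shoots. It made up 59.6%, 71.6% and 69.5% in nitrogen-excess roots, against 62.6%, 78.1% and 61.1% in control roots. This share needs no scaling between libraries, and its groups overlapped in both tissues. The means differed by 5.67 percentage points in shoot (64.0 ± 6.33% in nitrogen excess and 58.3 ± 9.27% in control; two-sided exact permutation test, p = 0.4). In root they differed by -0.39 points (66.9 ± 6.43% and 67.3 ± 9.39%; exact permutation p = 1; SD, n = 3 each).

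The other copper families were set beside miR397 in the same fits. In shoot the log2 fold changes were 3.61 ± 1.07 for miR398, which targets copper superoxide dismutases, 2.84 ± 0.84 for miR528 and 2.55 ± 0.92 for miR408, which targets plantacyanins and laccases. None of the 3 was called by edgeR (adjusted p = 0.0716, 0.0716 and 0.133), against a background of 0% of 58 families. With OLAs_528 summed into miR528 edgeR called all 3 (adjusted p = 0.0151 for miR398, 0.0151 for miR528 and 0.0339 for miR408), and so it did with OLAs_528 left out. Both choices also moved the median log2 fold change of all families from 0.14 to 0.60. In either case 5 of 57 families were called. With no filter edgeR called miR398 and miR528 (adjusted p = 0.0112 and 0.0358) and not miR408 (0.0634). Of all families it called 8 of 209 in that fit. Without nitrogen-excess shoot 1, miR398 stood at 1.06 ± 0.44, miR528 at 2.12 ± 0.54 and miR408 at 1.14 ± 0.54 (edgeR adjusted p = 0.197, 0.144 and 0.222). That fit keeps the library labelled nitrogen-excess shoot 3, which stood apart from its tissue label. Without control shoot 2, miR408 stood at 1.67 ± 1.13 (edgeR adjusted p = 0.51). Leaving out the library labelled nitrogen-excess shoot 3 gave 3.95 ± 0.96 for miR398, 3.11 ± 0.57 for miR528 and 2.80 ± 0.77 for miR408 (edgeR adjusted p = 0.0658, 0.0558 and 0.0865). DESeq2 called miR528 and miR408 (adjusted p = 0.00282 and 0.0324) and gave no p for miR398. It called 6 of the 58 families. On the unscaled CPM scale, all nitrogen-excess shoots lay above all control shoots for these 3 families and OLAs_528, 6.9% of the families fitted. miR397 differed from them there, because control shoot 3 stood at 1063 CPM. In root miR398, miR408 and miR528 stood at -0.48 ± 1.78, -0.02 ± 1.30 and -1.22 ± 1.41 (edgeR adjusted p of 0.988, 0.989 and 0.988). Without the library labelled control root 3 they stood at 3.59, 2.33 and 1.73 (edgeR adjusted p of 0.258, 0.354 and 0.855).

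**Figure D4:**
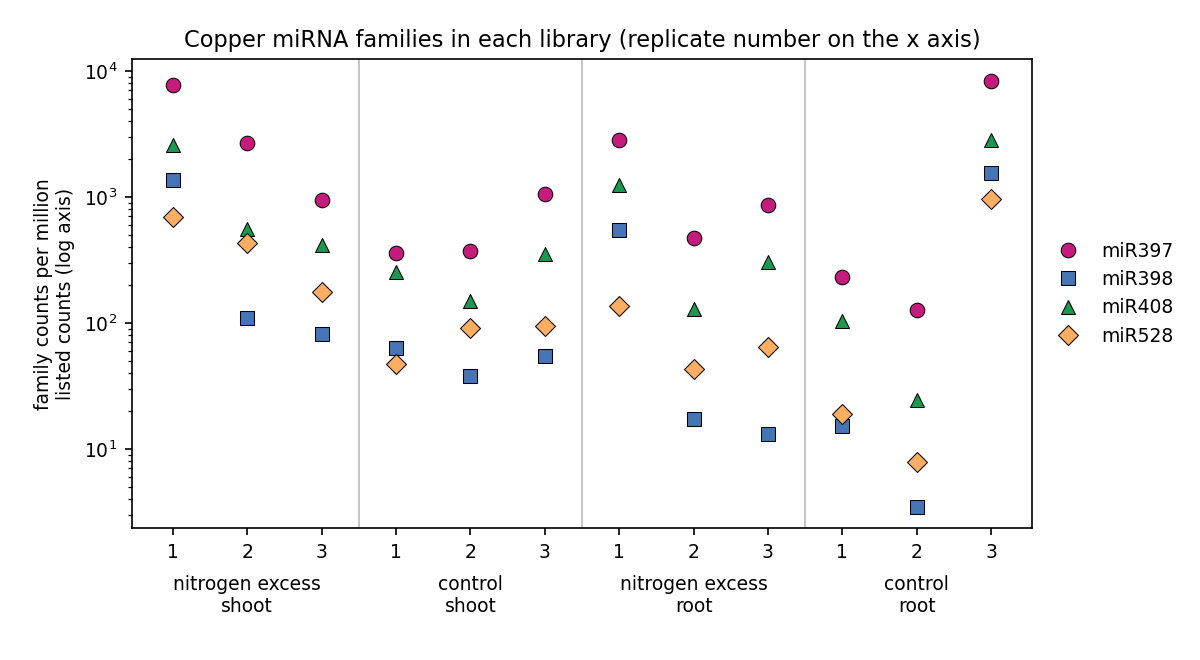
Level in CPM of listed counts (log axis) of miR397, miR398, miR408 and miR528 in each library, with the replicate number on the x axis and the groups separated by lines. miR397 is the highest of the 4 in every library, and all 4 reach their highest level in the library labelled control root 3, where miR397 stands at 8360, miR408 at 2804, miR398 at 1553 and miR528 at 963 CPM.

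The families whose pattern over the 12 libraries lay nearest to that of miR397 were mostly copper miRNAs. Likeness was the root mean square difference of log2 CPM, each family centred on its own mean, over the 74 other families kept. The 5 nearest were miR408 (0.49), miR528 (0.64), OLAs_528 (0.76), miR398 (1.11) and miR395 (1.31), a family that targets sulfate assimilation genes. All families were compared over the same 12 libraries, which differ in total and tissue, and OLAs_528 overlaps miR528-3p in sequence. The SD of miR397 over the libraries was 1.54 on the log2 scale, the 33rd largest of 75 families, against a median SD of 1.39.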

How the data were processed

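Total RNA was made into libraries with the Illumina TruSeq small RNA kit, per the labels' protocols. The authors deposited a table per tissue with whole-number counts per listed sequence. Per the file headers and values, the authors made the deposited normalized signal columns by dividing the counts by 1 factor per library; these columns were not analysed. The deposited log2 fold change and p-value columns, per the file headers, compare nitrogen excess with control. They carry DESeq2's column names, and the submitters' processing notes list that tool with no version. For trimming, mismatches and the counting tool the sources used here give nothing.

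Raw counts were fitted over all sequences, or sums per family, with edgeR 4.0.16 in R 4.3.3 (TMM, filterByExpr with minimum count 10 and minimum total 15, quasi-likelihood test, Benjamini-Hochberg threshold 0.05), each tissue alone or, for differences between tissues, all 12 libraries with their interaction. The SE was derived from the F statistic. The fitting code was tried on simulated counts with a smaller spread between libraries than the real ones. That trial checks the code and does not measure what these fits could detect. DESeq2 1.42.0 and limma 3.58.1 served as alternatives. p-values measure the spread between the labelled biological replicates, and intervals cover counting error only, since reads carry no molecular identifiers. Totals of the listed sequences, 245176 to 2246495 per library, set the precision; the lowest is the library labelled nitrogen-excess shoot 3.

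The miR397 rows, the copper list and the tests were chosen with earlier results of these data known. Named are every miR397 sequence with a count, the copper families miR398, miR408, miR528 and miR857, and the 5 families nearest to miR397 in pattern. No genome or hairpin was used, so no coordinates are given.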

Additional observations from a re-analysis of the deposited data

How the results depend on the processing

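The shoot miR397 family kept a positive change under every alternative run, but its side of the threshold moved. It was called with no filter (3.08), by DESeq2 (2.65), and with OLAs_528, chosen after seeing the data, summed into miR528 (3.32) or left out (3.32). The families called were then 8 of 209, 6 of 58, 5 of 57 and 5 of 57 tested. Both choices on OLAs_528 also moved the family median from 0.14 to 0.60. miR397 then stood 2.71 above that median, against 2.86 in the main fit. Among shoot sequences bdi-miR397b-5p was called by DESeq2 (2.76). Shoot sequences called numbered 8 of 450 with no filter, 8 of 148 by DESeq2, 1 of 148 by limma-voom and 3 of 148 with the replicate block. When 1 library was left out they numbered between 0 and 4, with 4 of 146 without nitrogen-excess shoot 1.

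In root the sign of the family turned with limma-voom (0.13), the replicate block (0.57) and the name prefix as a term (0.35), and that of bdi-miR397b-5p likewise (0.28, 0.68 and 0.48); the cause was not tested. With 1 library out the family ranged between -1.65 and 2.12, and bdi-miR397b-5p between -1.47 and 1.87. The root families called were then between 0 and 1, with 1 of 70 without the library labelled control root 3.

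Root over shoot in control plants was reversed without both libraries that stood apart (-0.46). Its families called numbered 8 of 73 without miR166, 8 of 385 with no filter and 19 of 75 by DESeq2. They numbered 8 of 76 with families only where all names match, and 30 of 79 without both libraries. With 1 library out they lay between 0 and 24, with 24 of 80 without the library labelled control root 3. In nitrogen-excess plants 26 of 79 were called without both.

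With 1 library out, the difference of the bdi-miR397b-5p share ranged between -0.99 and 1.02 points in shoot and between -6.56 and 1.21 in root, and that of the miR397 share of copper miRNAs between 1.31 (without control shoot 1) and 10.5 (without control shoot 3) in shoot and between -3.46 and 5.02 in root. Deviations of same-numbered libraries from their group means had correlations of 0.50, 0.08 and 0.05 in shoot and 0.15, 0.50 and -0.23 in root. Those of differently numbered libraries ranged between -0.42 and 0.37 in shoot and between -0.53 and 0.32 in root. The main fits did not take the numbers as pairs, although replicate 1 of every group shares a name prefix. Under the replicate block the shoot family stood at 2.82 (edgeR adjusted p = 0.142). Low counts limit hvu-miR397b-3p, with at most 28 counts in all but 1 library, and the 4 sequences with 15 counts or fewer in all.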

Other observations

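The sequence named tae-miR397-5p, with 1 count, differs at 2 of 21 positions from sbi-miR397-3p, while its longest run shared with bdi-miR397b-5p is 4 bases. The sequence is thus nearer to one named 3p than to the dominant 5p one, and the family sum takes both arms together. hvu-miR397b-3p, in turn, holds a run of 17 bases that is the reverse complement of part of bdi-miR397b-5p, the dominant sequence.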
